A study of Mus musculus with 12 samples.

Results

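Of the 12 libraries made from embryonic mouse brain in this study, 6 held caudal tissue by the level of a single gene, Hoxa5, and the effect of losing Nsd2 was described within these 6. The libraries were chosen by the measured level of Hoxa5, which had to be at least 1 CPM (the counts of a gene scaled to a common library size, after TMM correction). The rule took WT female 3, WT male 2 and WT male 3 and, from the knockout (KO) embryos, KO female 2, KO female 3 and KO male 2, so 3 of the 6 libraries of each genotype are called Hox-high here. The other 6 are called Hox-low. All embryos were on the C57BL/6 background and were collected at E15.5. WT embryos carried an intact Nsd2 gene, and KO embryos lacked its whole coding sequence after CRISPR/Cas9 editing. Each library was made from the labelled brain of an embryo of known sex. Because the Hox-high set holds 1 female and 2 males among WT and 2 females and 1 male among KO, sex was a covariate in each test.

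NSD2 is a histone methyltransferase that adds dimethylation to lysine 36 of histone H3, a mark found in genes and in the regions between them. Hox genes encode transcription factors that give cells their position along the head-to-tail axis. In the embryonic nervous system they are read in the hindbrain and spinal cord and are silent in forebrain and midbrain, and genes of higher paralog number are read farther towards the tail. A brain sample that contains hindbrain or spinal cord therefore contains Hox transcripts, of higher paralog number the farther back it reaches.

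The 6 libraries held 43472023 to 59304196 counts each, over 46078 genes. WT libraries averaged 57440462 counts and KO libraries 51251632, with an exact two-sided permutation p of 0.2, in a design of 3 against 3 that cannot go below 0.1. Their log2 CPM profiles correlated pairwise at 0.9645 to 0.9844, and no columns were identical. Genes of newborn neurons summed to 9852 to 10380 CPM in WT and 9839 to 11070 CPM in KO libraries, whereas genes of muscle and cartilage summed to 91.1 to 163 and 127.5 to 192 CPM. Replicates are embryos numbered by the labels, with no litter given, so p-values measure the spread between these libraries.

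Nsd2 transcripts, listed under the older name Whsc1 (chromosome 5, 33820725 to 33897975 on GRCm38), were close to absent from the KO libraries. Whsc1 was at 351, 363 and 365 CPM in WT female 3, WT male 2 and WT male 3. It was at 1.48, 2.67 and 0.909 CPM in KO female 2, KO female 3 and KO male 2. The log2 fold change, KO over WT here and throughout, was -7.90 (SE 0.402, adjusted p = 0.0197 by edgeR's quasi-likelihood test with Benjamini-Hochberg adjustment). With 3 residual degrees of freedom, even this deletion lost its call without KO female 2, WT male 2 or WT male 3 (adjusted p = 0.0831, 0.205 and 0.111). Nsd2 is left out of all counts of genes below.

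Hoxa5 set the choice of libraries and its levels are given as a description. It was at 53.3, 43.6 and 53.9 CPM in WT female 3, WT male 2 and WT male 3 and at 46.0, 38.5 and 13.2 CPM in KO female 2, KO female 3 and KO male 2. KO male 2 lay lowest among the chosen libraries, and WT male 1, at 0.87 CPM, lay just outside. The 39 Hox genes summed to 238 to 279.6 CPM in the WT libraries and to 298, 269.5 and 74.7 CPM in KO female 2, KO female 3 and KO male 2. In the Hox-low libraries they summed to 1.21 to 26.8 CPM in WT and 1.16 to 7.91 CPM in KO.

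The 6 libraries did not reach equally far along the Hox series. Hox genes of paralog groups 1 to 4, read from the hindbrain on, summed to 128, 103 and 93.8 CPM in WT female 3, WT male 2 and WT male 3 and to 123, 112 and 40.2 CPM in KO female 2, KO female 3 and KO male 2. Group 9 genes, which mark cord farther back, summed to 0.606, 4.72 and 6.87 CPM in the WT libraries in that order and to 6.19, 5.95 and 0.232 CPM in the KO libraries. For group 9, WT female 3 and KO male 2 were thus low while the other libraries were high. Groups 6 to 8 summed to 46.1, 45.8 and 79.2 CPM in WT and to 75.9, 67.3 and 6.04 CPM in KO. There WT female 3 was level with WT male 2. KO male 2 alone was low for groups 6 to 8, as it was for groups 1 to 4, with no WT library like it. Hoxb8 was at 28.2, 23.6 and 48.0 CPM in WT and 43.5, 40.7 and 2.48 CPM in KO. In bulk tissue, fewer cells of a type and less RNA per cell cannot be told apart.

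**Figure D1:**
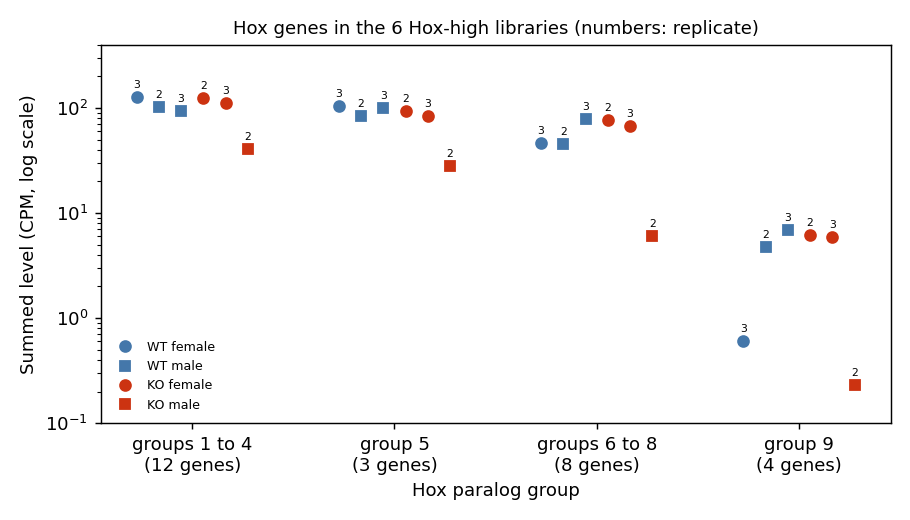
Summed level in CPM (log scale) of Hox genes by paralog group in each of the 6 Hox-high libraries, blue for WT and red for KO, circles for females and squares for males, with the replicate number above each point. KO male 2 is lowest in every band, and for group 9 it is joined by WT female 3 at 0.606 CPM.

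No Hox gene passed the test between genotypes. Without WT female 3, the only WT female, the genotype effect came from KO male 2 alone against WT male 2 and WT male 3. In that fit Hoxb9 and Hoxc6, named after seeing their values, lay lower in KO male 2, which describes that library. Without Hoxa5, 21 of 23 tested Hox genes had a negative log2 fold change, with a median of -0.78 against 0.00 over all genes. Without KO male 2, the only KO male, the genotype effect came from KO female 2 and KO female 3 against WT female 3 alone. The median of the Hox genes was then 0.07. Hoxb5 differed by -0.77 (SE 0.258, adjusted p = 0.689 by edgeR), Hoxb3 by -0.60 (SE 0.326) and Hoxc4 by -0.80 (SE 0.482) on the log2 scale. Genes of hindbrain and spinal cord neurons summed to 338, 358 and 199.6 CPM in WT and to 327, 366 and 338 CPM in KO libraries. None of 22 tested was called, and 16 of the 22 were negative, with a median log2 fold change of -0.135. Tfap2b and Gata3 of this list lay the other way. Tfap2b, a transcription factor of hindbrain and sensory neurons, was at 120.4, 112 and 40.7 CPM in WT and at 136, 165 and 188 CPM in KO. Gata3, a factor of inhibitory interneurons of the brainstem and cord, was at 29.9, 28.1 and 14.7 and at 27.3, 38.1 and 38.7 CPM. WT male 3 was lowest for these genes. Genes of sensory ganglion neurons summed to 177, 281 and 112 CPM in WT and 155, 129 and 111 CPM in KO libraries. None of 19 tested was called, with a median log2 fold change of -0.93 that ranged from -1.20 to -0.19 when each library was left out in turn. Ret, the receptor of glial cell line-derived neurotrophic factor, was at 31.9, 56.3 and 23.5 CPM in WT and 20.7, 16.4 and 18.8 CPM in KO, while Pou4f1, a factor of sensory neurons and midbrain, was at 36.9, 31.4 and 14.5 and at 34.3, 48.0 and 33.3 CPM.

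Within the Hox-high libraries 8 genes were higher in KO brains and 1 was lower. The 8 were Pcdhb10, Pcdhb11, Pcdhb14, Pcdhb16, Pcdhb17 and Pcdhb19, Lhx9 and Gm20458, and the lower gene was Rnu3b2. Among 18912 genes tested they make up 0.0423% higher and 0.00529% lower calls at an adjusted p under 0.05. At an unadjusted p under 0.05 there were 766 lower genes (4.05%) and 410 higher genes (2.17%). All 3 KO libraries lay below all 3 WT libraries for 7.36% of genes and above them for 5.57%. The number of calls differed between fits. Estimating the spread from a fit of all 12 libraries made 61 genes lower (0.309%) and 17 higher (0.086%). That fit also re-estimated the log2 fold changes, from -0.60 to 0.08 for Hoxb3 but from -1.69 to -1.74 for Lrfn5. DESeq2 called 144 lower (0.922%) and 49 higher (0.314%). The mean Hox level of each library as a covariate left 3 lower (0.0159%) and 6 higher (0.0317%). That covariate leaves fewer residual degrees of freedom than the main fit, so calls lost with it need not depend on the Hox level. Leaving out a library gave 37 lower and 8 higher genes without KO female 2 and 7 and 9 without KO female 3. It gave 1 and 1 without WT male 2 or WT male 3. WT female 3 is the only WT female and KO male 2 the only KO male. Without either, sex as a covariate leaves the genotype effect to 1 library against 2 of the same sex, so those calls are not given. Of the 9 genes, 1, Rnu3b2, was called without each of KO female 2, KO female 3, WT male 2 and WT male 3.

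The genes that rose were mostly members of the protocadherin beta cluster, a row of near-neighbour genes on chromosome 18 that encode cell surface adhesion proteins by which neurons recognise each other. Of 22 Pcdhb genes 21 were tested, 6 rose and 15 did not pass the test. Pcdhb19 was at 18.1, 21.3 and 19.3 CPM in WT female 3, WT male 2 and WT male 3 and at 38.8, 36.2 and 41.7 CPM in KO female 2, KO female 3 and KO male 2, which is 1.05 on the log2 scale (SE 0.0948, adjusted p = 0.0197 by edgeR). Pcdhb17 was at 17.0, 17.8 and 16.4 CPM in WT and 32.4, 34.5 and 35.4 CPM in KO, which is 1.02 on the log2 scale (SE 0.0923, adjusted p = 0.0197). Every KO library stood above every WT library for both genes, with less spread within a genotype than between them.

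Among the 6 called Pcdhb genes the steepest rise was that of Pcdhb10, from 3.71, 3.46 and 2.98 CPM in WT to 10.6, 9.62 and 9.999 CPM in KO, which is 1.54 on the log2 scale (SE 0.152, adjusted p = 0.0214 by edgeR). Pcdhb11 rose by 1.48 (SE 0.156), Pcdhb14 by 1.42 (SE 0.148) and Pcdhb16 by 1.39 (SE 0.133) on the log2 scale. For 20 of the 21 tested genes all KO libraries lay above all WT libraries, against the 5.57% of all genes given above, and the same 20 had an unadjusted p under 0.05. The exception was Pcdhb8, at 4.97, 6.21 and 5.22 CPM in WT and 7.69, 8.33 and 5.42 CPM in KO, whose sign turned without WT female 3 (log2 fold change -0.08). Summed over the cluster, WT libraries held 157 to 183 CPM and KO libraries 318 to 334 CPM.

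The median log2 fold change of the cluster was 1.02 and moved between 0.99 and 1.06 as each library was left out. The calls were less steady than the sizes. With the spread over all 12 libraries 14 members rose, whereas none was called without WT male 3 and 1 was without WT male 2. Without WT female 3 or KO male 2 the genotype effect rests on 1 library of a genotype, so calls of those fits are not given. With the mean Hox level of each library as a covariate no member was called and the median was 1.01. That fit has fewer residual degrees of freedom, so its lost calls cannot be told from lost power. Pcdhb genes are similar in sequence, so counts may be split between members by the assignment of reads, which a sum over the cluster avoids.

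**Figure D2:**
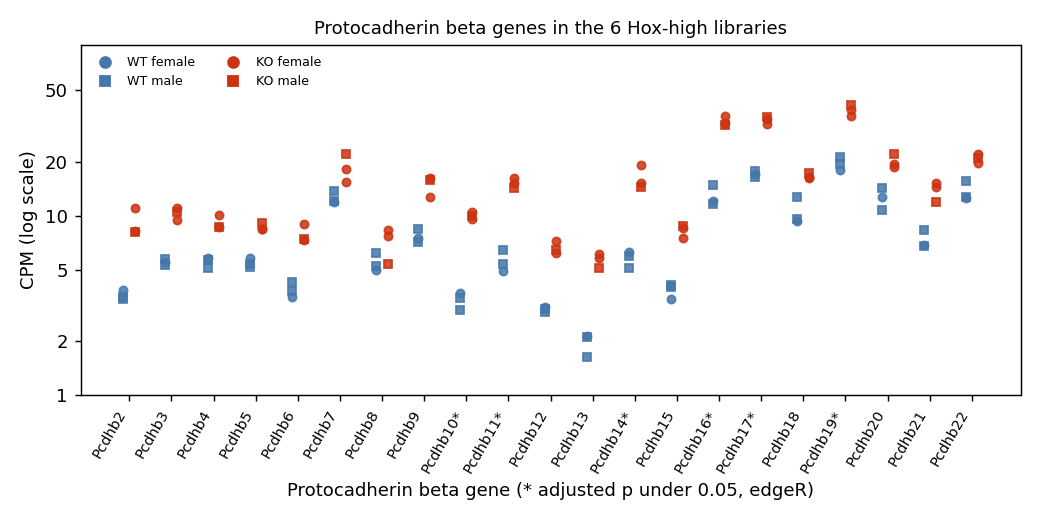
Level in CPM (log scale) of the 21 tested protocadherin beta genes in each Hox-high library, blue for WT and red for KO, circles for females and squares for males, with an asterisk at the 6 genes called by edgeR. Red points lie above blue points for every gene but Pcdhb8.

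The neighbouring clusters did not move as a body. The alpha and gamma clusters make similar adhesion proteins that share constant exons within each cluster. Reads of those exons may be split between members by their assignment, and levels of single members carry that limit. Of 14 tested alpha records and 22 gamma genes none was called, and the summed level was 209 to 232 CPM in WT and 186 to 218 CPM in KO libraries for alpha genes and 676 to 725 and 627 to 691 CPM for gamma genes. Pcdha7 was at 21.6, 23.8 and 22.4 CPM in WT and 26.4, 28.1 and 33.2 CPM in KO (log2 fold change 0.44, SE 0.0941, adjusted p = 0.334 by edgeR), and Pcdha2 had a log2 difference of 0.24 (SE 0.235). Pcdhgc3 was at 113, 115 and 122 CPM in WT and 137, 137 and 171 CPM in KO (log2 fold change 0.40, SE 0.0848, adjusted p = 0.314), and was called when the spread was taken over 12 libraries (adjusted p = 0.0477). With that spread Pcdhac2 (log2 fold change -0.58, adjusted p = 0.0251) and Pcdhgb5 (-0.78, adjusted p = 0.0267), both named after seeing their values, were called lower. Pcdhgb8 varied more within than between genotypes, at 79.8, 79.2 and 31.0 and at 68.0, 72.6 and 14.7 CPM. Among 12 protocadherins outside the clusters none was called. Pcdh10 and Pcdh17, the most abundant, had log2 fold changes of -0.09 (SE 0.0983) and -0.15 (SE 0.126). Pcdh11x, chosen after its values were seen, was at 62.4, 79.2 and 62.4 CPM in WT and 33.6, 24.2 and 33.5 CPM in KO (log2 fold change -1.09, SE 0.157, adjusted p = 0.115, and 0.0072 with the spread over 12 libraries).

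Lhx9, a LIM-homeodomain transcription factor of the thalamus, midbrain and cord (chromosome 1, 138825186 to 138848577), was higher in KO than in WT Hox-high libraries. It was at 70.1, 50.2 and 50.6 CPM in WT female 3, WT male 2 and WT male 3 and at 106, 114 and 100.5 CPM in KO female 2, KO female 3 and KO male 2. The lowest KO library was above the highest WT library, and the log2 fold change was 0.83 (SE 0.0925, adjusted p = 0.0392 by edgeR). KO libraries averaged 106.7 CPM in the Hox-high and 105.7 CPM in the Hox-low set, whereas WT libraries averaged 57.0 and 120.9 CPM. The sets thus differed in the WT level of Lhx9 rather than in its KO level, and the reason was not tested. The call held without KO female 2 and was lost without KO female 3, WT male 2 or WT male 3 (adjusted p = 0.0844, 0.207 and 0.133). It was also lost without the filter on low counts (0.0813) and with the spread over 12 libraries (0.0568). The same held without sex as a covariate (0.0927) and with the Hox level as a covariate (0.109). Without WT female 3 or KO male 2 the log2 fold change was 0.99 and 0.66, each resting on 1 library of a genotype. Other regional factors did not pass the test. Tcf7l2, a thalamic factor chosen after its values were seen, was at 193, 145 and 147 CPM in WT and 221, 266 and 284 CPM in KO (log2 fold change 0.65, SE 0.143, adjusted p = 0.359). Otx2, a factor of forebrain, midbrain and choroid plexus, was at 26.0, 26.2 and 13.4 CPM in WT and 33.4, 37.0 and 44.8 CPM in KO (log2 fold change 0.82, SE 0.304, adjusted p = 0.782).

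Lists of regional factors differed between libraries as well. The 26 midbrain and hindbrain factors summed to 698, 610 and 528 CPM in WT and to 681, 760.0 and 741 CPM in KO libraries. Their median log2 fold change was 0.23, with none called. It was -0.06 without KO male 2, a fit in which the WT males no longer bear on the genotype effect. Zic1 and Zic4, zinc finger factors of dorsal midbrain and hindbrain, had log2 fold changes of 0.22 (SE 0.0829, adjusted p = 0.743) and 0.23 (SE 0.102, adjusted p = 0.809). The 27 forebrain factors, of which Lhx9 was the only called member, summed to 1914, 1427 and 2146 CPM in WT and to 1898, 2289 and 1918 CPM in KO. WT male 2 and WT male 3 were the lowest for midbrain and hindbrain factors, as they were for Lhx9. The part of regional makeup in the Lhx9 difference was not tested.

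Rnu3b2, the lower gene, encodes a copy of the U3 small nucleolar RNA, which guides the processing of ribosomal RNA. It was at 44.5, 49.6 and 63.7 CPM in WT female 3, WT male 2 and WT male 3 and at 0 in all 3 KO libraries. A second record of the tables, ACEA_U3, shares its start and strand and was at 0.488, 0.301 and 0.269 CPM in the same WT libraries and at 100.1, 46.9 and 105.5 CPM in KO female 2, KO female 3 and KO male 2. Both lie at the same place on chromosome 11, at chr11:87471368-87471582 and chr11:87471368-87471583 on the plus strand of GRCm38. Their sequences in the GENCODE annotation, shown because the whole call turns on them, are given 5′ to 3′ with the extra base of the longer record in a capital.
Rnu3b2: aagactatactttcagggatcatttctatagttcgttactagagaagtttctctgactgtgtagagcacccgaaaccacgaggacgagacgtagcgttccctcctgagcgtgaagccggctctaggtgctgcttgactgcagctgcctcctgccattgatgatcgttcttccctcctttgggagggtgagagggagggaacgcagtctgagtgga
ACEA_U3: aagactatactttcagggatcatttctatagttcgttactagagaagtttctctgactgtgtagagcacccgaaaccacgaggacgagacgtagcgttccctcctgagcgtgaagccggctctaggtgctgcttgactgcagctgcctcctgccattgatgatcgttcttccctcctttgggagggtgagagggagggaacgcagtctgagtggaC

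The records share all 215 bases of the shorter, and the same 215 bases stand in 8 records under 4 gene names, Rnu3b1 to Rnu3b4. In each of the 12 libraries a single record of the pair held nearly all the reads. When both records were added up, an alternative chosen after seeing the data, the Hox-high libraries had 44.9, 49.9 and 64.0 CPM in WT and 100.1, 46.9 and 105.5 CPM in KO. The sum had a log2 difference of 0.81 (SE 0.333, adjusted p = 0.834 by edgeR), so no gene was lower in KO libraries when the pair was counted together, and the 8 higher genes stayed at 8. Gm20458 is uncertain too. It is a model on chromosome 2 (164460967 to 164490760) that overlaps Sys1 and Dbndd2 on the same strand. Sys1 was at 28.5, 25.8 and 29.5 CPM in WT and 26.5, 26.6 and 25.4 CPM in KO libraries. Dbndd2 was at 9.99, 9.19 and 8.45 and at 9.06, 7.44 and 7.15 CPM. Neither switched between all and none as the U3 records did, and whether their reads were assigned to Gm20458 was not tested. Gm20458 was at 0 in the 3 WT libraries and at 1.62, 1.60 and 2.07 CPM in the KO libraries, whereas among Hox-low libraries it was at 0.691 CPM in WT female 2 and at 0 in the others, KO included. No fold is given against a group at 0.

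Lrfn5, a leucine-rich repeat protein that organises synapses, had the lowest adjusted p among genes that did not pass the test. It lies on chromosome 12 from 61523150 to 61858342. Lrfn5 was at 67.9, 76.8 and 72.5 CPM in WT female 3, WT male 2 and WT male 3 and at 27.2, 17.3 and 21.9 CPM in KO female 2, KO female 3 and KO male 2. The groups were far apart, and the log2 fold change was -1.69 (SE 0.180, adjusted p = 0.0604 by edgeR). It passed with the spread over 12 libraries (adjusted p = 0.00161), without the filter on low counts (0.0278), without sex as a covariate (0.0135), by DESeq2 (3.54e-16) and without KO female 2 or KO female 3 (0.00168 and 0.0185). With the Hox level as a covariate Lrfn5 did not pass (log2 fold change -1.64, adjusted p = 0.216). Nor did it pass without WT male 2 (0.218) or WT male 3 (0.133). Without WT female 3 or KO male 2 the log2 fold change was -1.77 and -1.60, each resting on 1 library of a genotype.

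None of the other 4 genes that the study singles out for RNA passed the test. Gria4, a subunit of AMPA-type glutamate receptors, was at 66.4, 78.2 and 65.3 CPM in WT and 41.6, 32.5 and 38.7 CPM in KO (log2 fold change -0.86, SE 0.127, adjusted p = 0.115, and 0.0111 with the spread over 12 libraries). Kcnd2, a pore subunit of A-type potassium channels, was at 63.9, 71.7 and 60.3 CPM in WT and 42.4, 35.2 and 46.5 CPM in KO (log2 fold change -0.61, SE 0.118, adjusted p = 0.264, and 0.0251 with that spread). Csmd3, a large transmembrane protein of neurons, was at 39.8, 39.4 and 32.3 CPM in WT and 30.9, 28.0 and 23.5 CPM in KO (log2 fold change -0.52, SE 0.117, adjusted p = 0.359). For Gria4, Kcnd2 and Csmd3 the 3 KO libraries lay below the 3 WT libraries. Sorbs2, an adaptor protein of the cytoskeleton, lay the other way, at 137, 132 and 145 CPM in WT and 165, 184 and 172 CPM in KO (log2 fold change 0.33, SE 0.0858, adjusted p = 0.447). The study picked these genes in an experiment that includes these libraries, so their directions are no independent evidence.

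**Figure D3:**
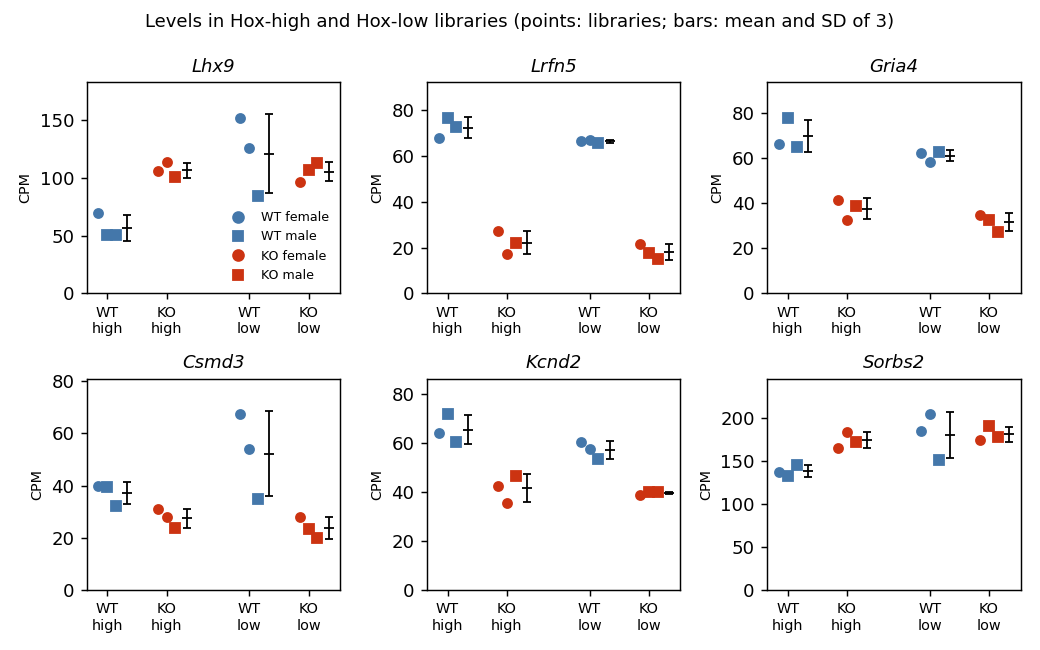
Level in CPM of 6 genes in Hox-high and Hox-low libraries, blue for WT and red for KO, circles for females and squares for males, with mean and SD of 3 libraries in black. Lrfn5 and Gria4 are lower in every KO library of both sets, whereas Lhx9 is higher in KO than in WT libraries among the Hox-high set alone.

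Lists of synaptic genes held no called member in the Hox-high libraries, while most of their members had negative log2 fold changes. Of 64 tested synaptic adhesion molecules 51 were negative, with a median of -0.12, where 49.4% of all genes were negative. For 20 of the 64 the KO libraries all lay below the WT libraries, against 7.36% of all genes, and for 1 they lay above. The most abundant, Ptprs, a receptor phosphatase of the presynapse, and Adgrl1, the latrophilin receptor, had log2 fold changes of 0.09 (SE 0.131) and -0.09 (SE 0.105). Lower in the list lay Slitrk4, a transmembrane protein that organises synapses (named after seeing its values). Slitrk4 was at 24.3, 29.6 and 24.8 CPM in WT and 13.7, 8.80 and 12.6 CPM in KO (log2 fold change -1.11, SE 0.182, adjusted p = 0.180, and 0.0133 with the spread over 12 libraries). With that spread 5 of the 64 adhesion molecules fell and none rose, where 0.309% of all genes fell.

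On the presynaptic side, 44 of 52 tested genes of the release machinery were negative (median -0.18). For 22 of the 52 (42.3%) all KO libraries lay below all WT libraries, against 7.36% of all genes. Rab3c, a vesicle GTPase, had a log2 difference of 0.08 (SE 0.106). Syt9 and Cplx1 were chosen after their values were seen, and both passed with the spread over 12 libraries. Syt9, a calcium sensor of vesicle release, was at 18.4, 25.8 and 20.4 CPM in WT and 7.20, 4.42 and 9.02 CPM in KO (log2 fold change -1.51, SE 0.211, adjusted p = 0.115, and 0.00379 with that spread). Cplx1, a complexin that holds vesicles ready for release, was at 65.8, 80.0 and 78.1 CPM in WT and 48.6, 39.7 and 50.4 CPM in KO (log2 fold change -0.61, SE 0.104, adjusted p = 0.180, and 0.0111). In the Hox-low libraries Cplx1 had a log2 fold change of -0.14, and the difference between the sets had an unadjusted p of 0.00265 and an adjusted p of 1 by edgeR.

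On the postsynaptic side, 33 of 40 tested scaffold and auxiliary genes were negative (median -0.16). All KO libraries lay below all WT libraries for 16 of the 40 (40%), against 7.36% of all genes. Shank1, a master scaffold of the postsynaptic density, and Cacng4, an auxiliary subunit of AMPA receptors, were the most abundant. Shank1 was at 257, 251 and 232 CPM in WT and 251, 256 and 224 CPM in KO (log2 fold change -0.06, SE 0.0838), and Cacng4 at 264, 272 and 263 and at 217, 239 and 258 CPM (log2 fold change -0.13, SE 0.0854). Dlgap1, a scaffold that joins Shank proteins to the postsynaptic density (named after seeing its values), was at 58.8, 65.2 and 69.7 CPM in WT and 30.9, 16.5 and 27.0 CPM in KO. It had a log2 difference of -1.31 (SE 0.247, adjusted p = 0.352, and 0.0196 with the spread over 12 libraries).

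Receptors of transmitters lay lower in KO libraries more often than genes at large, again without a call. Of 25 glutamate receptor genes 21 were negative (median -0.20). For 11 of the 25 (44%) all KO libraries lay below all WT libraries, against 7.36% of all genes. Grin2b and Gria2, the most abundant subunits of NMDA and AMPA receptors, had log2 fold changes of -0.05 (SE 0.164) and -0.01 (SE 0.158). Grin3a, an NMDA receptor subunit that lowers calcium entry (named after seeing its values), was at 80.0, 115 and 87.2 CPM in WT and 44.5, 31.5 and 46.7 CPM in KO (log2 fold change -1.09, SE 0.170, adjusted p = 0.180, and 0.013 with the spread over 12 libraries). With that spread 4 of the 25 fell, where 0.309% of all genes fell.

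Receptors of GABA and glycine, which carry inhibition, were negative in 16 of 20 tested genes (median -0.35). Of the 20, 12 (60%) had all KO libraries below all WT libraries, against 7.36% of all genes. Gabbr1, a subunit of the GABA-B receptor, was at 355, 384 and 365 CPM in WT and 297, 338 and 352 CPM in KO (log2 fold change -0.12, SE 0.0881, adjusted p = 0.940). The KO libraries lay below the WT libraries for Gabbr1, by little.

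Of 13 tested serotonin receptor genes 12 were negative, with the lowest median of the receptor lists, -0.59. Htr1a, an inhibitory receptor chosen after its values were seen, was at 5.44, 6.01 and 5.02 CPM in WT and 2.23, 1.72 and 1.91 CPM in KO (log2 fold change -1.49, SE 0.204, adjusted p = 0.0865, and 0.0354 with the spread over 12 libraries). Htr1b, an inhibitory receptor of axon terminals, was at 10.3, 10.6 and 7.89 CPM in WT and 7.90, 5.24 and 6.68 CPM in KO (log2 fold change -0.55, SE 0.205, adjusted p = 0.712). Htr2c, the most abundant, did not separate the genotypes, at 8.59, 16.8 and 8.0 and at 11.8, 6.86 and 11.4 CPM.

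Within cAMP signalling 25 of 32 genes were negative (median -0.16), and the lowest were adenylyl cyclases, the enzymes that make cAMP. Adcy8 was at 19.9, 22.4 and 20.2 CPM in WT and 10.7, 8.0 and 8.54 CPM in KO (log2 fold change -1.20, SE 0.153, adjusted p = 0.0744, and 0.00551 with the spread over 12 libraries). Adcy2 was at 24.1, 33.1 and 28.8 CPM in WT and 12.7, 9.0 and 9.38 CPM in KO (log2 fold change -1.43, SE 0.195, adjusted p = 0.115, and 0.013). Both were chosen after their values were seen, and in both every KO library was below every WT library. The most abundant members lay near 0 or above, Prkar1a, a regulatory subunit of protein kinase A, at 0.00 (SE 0.0872) and Akap9, which anchors that kinase, at 0.27 (SE 0.095, adjusted p = 0.669).

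Channels followed the receptors. Of 41 voltage-gated potassium channel genes 36 were negative (median -0.25). Of the 41, 18 (43.9%) had all KO libraries below all WT libraries, against 7.36% of all genes. Dpp6, an auxiliary subunit of Kcnd2 channels, was at 140.4, 174 and 137 CPM in WT and 112, 105.5 and 135 CPM in KO (log2 fold change -0.28, SE 0.109, adjusted p = 0.752). Among 42 genes of sodium, calcium and further cation channels, 32 were negative (median -0.15), with 12 (28.6%) separated downwards. Scn3b, a beta subunit of sodium channels, was at 174, 214 and 197 CPM in WT and 141, 127 and 174 CPM in KO (log2 fold change -0.31, SE 0.0902, adjusted p = 0.539), and Cacnb3, a beta subunit of calcium channels, had 0.05 (SE 0.122). The medians of the receptor, channel and synaptic lists kept their sign under RLE scaling, under DESeq2, with the Hox level as a covariate and without each library in turn.

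Genes of the oligodendrocyte lineage, the cells that will form myelin, were negative in all 13 tested members, with a median of -0.48 and none called. Olig1, a factor that specifies the lineage, was at 41.5, 48.2 and 39.4 CPM in WT and 25.5, 16.4 and 28.5 CPM in KO (log2 fold change -0.80, SE 0.194, adjusted p = 0.458). Olig2, its partner, chosen after its values were seen, was at 21.3, 18.5 and 18.0 CPM in WT and 15.3, 14.3 and 13.5 CPM in KO (log2 fold change -0.48, SE 0.101, adjusted p = 0.327). Pdgfra, the receptor of their precursors and of mesenchyme, overlapped between genotypes, at 52.2, 76.8 and 39.3 and at 51.8, 26.3 and 44.0 CPM. The median of this list stayed between -0.61 and -0.33 as each library was left out.

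Most members of several lists of non-neural cells were negative too, as most synaptic genes were. This held for 16 of 17 genes of endothelium and pericytes (median -0.12), 12 of 14 microglial genes (median -0.15) and 16 of 17 genes of meninges and mesenchyme. The KO libraries all lay below the WT libraries for 1 (5.88%), 0 and 0 of these genes, against 7.36% of all genes. Genes of meninges and mesenchyme summed to 337 to 1572 CPM in WT and 434 to 838 CPM in KO libraries and their median, -0.43, ranged from -0.70 to 0.03, the latter without WT male 2, as each library was left out. Col3a1 and Col1a2, collagens of connective tissue, were at 293.5, 358 and 84.1 and at 222, 381 and 54.7 CPM in the WT libraries, a wider range than in KO, at 259.7, 145 and 179 and at 173, 79.0 and 115 CPM. Genes of choroid plexus, which makes cerebrospinal fluid, summed to 321 to 946 CPM in WT and 288 to 907 CPM in KO libraries, with Ttr, its carrier of thyroid hormone, at 243, 794 and 319 and at 540.4, 199 and 749 CPM. None of these lists held a called gene, and their part in the synaptic and receptor lists was not tested.

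Enzymes that act on the same histone mark did not pass the test. Of 13 H3K36 methyltransferases and demethylases 11 were positive, with a median of 0.11 and none called. Nsd1, of the same family as NSD2, was at 335, 420 and 389 CPM in WT and 379, 421 and 447 CPM in KO (log2 fold change 0.20, SE 0.0909, adjusted p = 0.821), and Setd5 had 0.14 (SE 0.0948). Among 12 neighbours of Nsd2 none was called and the median was 0.05. Nelfa, the adjacent gene and a subunit of the negative elongation factor, chosen after its values were seen, had 0.21 (SE 0.0921, adjusted p = 0.821). Lists of cell cycle genes, radial glia, p53 targets and immediate early genes had medians of 0.03, 0.02, -0.04 and -0.08 with none called.

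**Figure D4:**
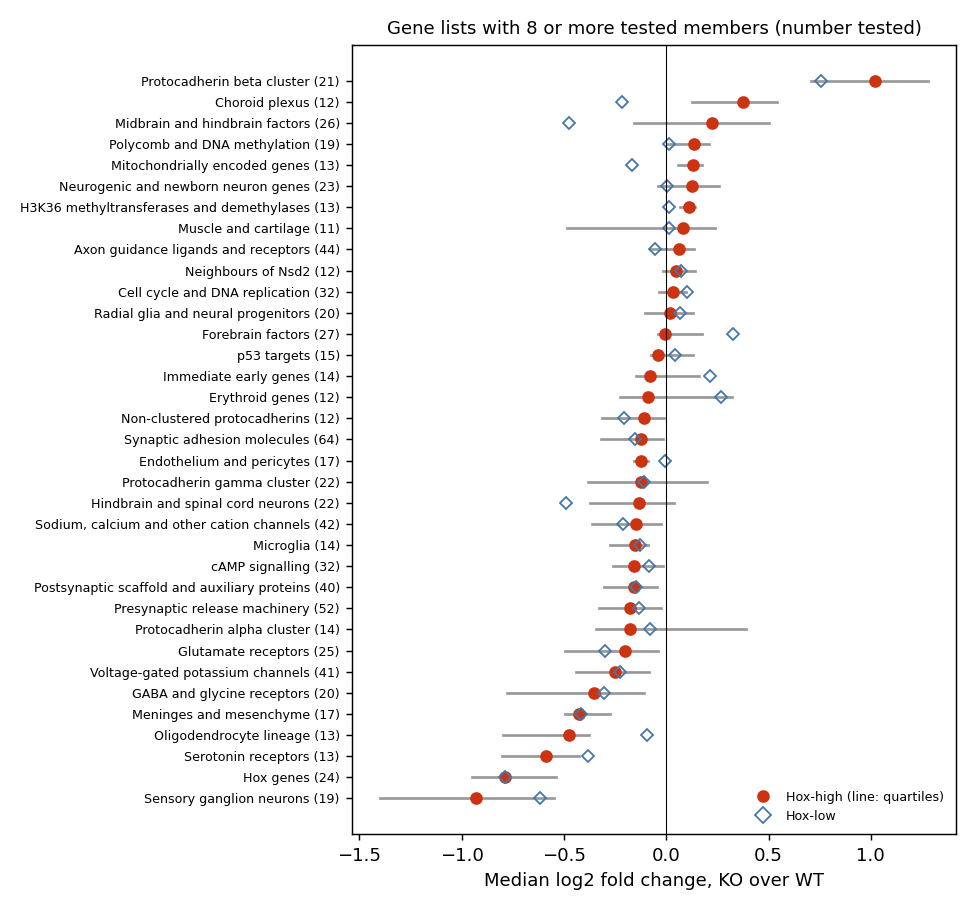
Medians, per gene list, of the log2 fold change of KO over WT in the Hox-high libraries (red circles, with a line from the lower to the upper quartile of members) and in the Hox-low libraries (open blue diamonds), with members tested given in brackets. The protocadherin beta list stands at 1.02, and the synaptic, receptor and channel lists lie between -0.59 and -0.12. Midbrain and hindbrain factors lie on opposite sides of 0 in the 2 sets. Their Hox-high median is -0.06 without KO male 2, when only the females bear on the genotype effect.

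The 6 Hox-low libraries share no animal with the Hox-high set and were compared with it gene by gene. In their own fit 34 genes were lower (0.18%) and 7 higher (0.037%) among 18896 tested. Of the 9 genes called in the Hox-high libraries 7 could be tested there, and 6 of these, the Pcdhb genes, had the same sign. Across 18504 genes tested in both sets 62.9% had the same sign and log2 fold changes correlated at 0.334 (Pearson, across genes, which are not independent replicates). Of 745 genes that were lower in Hox-high libraries at an unadjusted p under 0.05, 658 (88.3%) were also lower in Hox-low libraries, and of 402 higher genes 312 (77.6%) were also higher. Of the 61 lower and 17 higher genes called with the spread over 12 libraries, 59 and 17 were tested in the Hox-low libraries, and all of these had the same sign in the Hox-low fit, though that spread is itself taken partly from the Hox-low libraries.

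Some members had near values in both sets and others did not. Lrfn5 was at 66.6, 66.9 and 65.5 CPM in WT female 1, WT female 2 and WT male 1 and at 21.6, 17.6 and 14.9 CPM in KO female 1, KO male 1 and KO male 3, a log2 fold change of -1.82 (adjusted p = 0.00246 by edgeR) against -1.69 in the Hox-high set. Gria4 had -0.93 against -0.86, Syt9 -1.69 against -1.51 and Pcdh11x -1.12 against -1.09. Csmd3 had -0.91 in Hox-low against -0.52 in Hox-high libraries, Olig1 -0.10 against -0.80, Cplx1 -0.14 against -0.61, Sorbs2 0.06 against 0.33 and Pcdhb19 0.69 against 1.05. The Pcdhb median was 0.76 in Hox-low and 1.02 in Hox-high libraries, with 5 members higher in the Hox-low fit. Synaptic adhesion molecules had medians of -0.15 and -0.12, GABA and glycine receptors of -0.30 and -0.35, and potassium channels of -0.22 and -0.25.

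**Figure D5:**
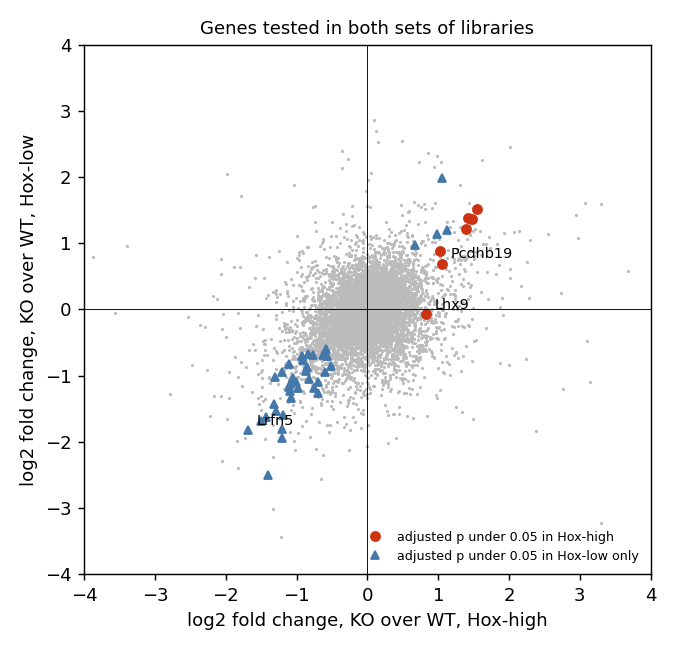
Log2 fold change (KO over WT) in the Hox-high libraries against that in the Hox-low libraries, for genes tested in both, red for genes called in the Hox-high fit and blue triangles for genes called in the Hox-low fit but not in the Hox-high fit. Of 18504 genes 4 lie outside the axes, which end at 4 on each side, and Lhx9 is the called gene near 0 in the Hox-low libraries.

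The log2 fold change of Lhx9 and the medians of some lists differed between the sets. In Hox-low libraries Lhx9 was at 152, 126 and 84.4 CPM in WT female 1, WT female 2 and WT male 1. It was at 96.9, 107 and 113 CPM in KO female 1, KO male 1 and KO male 3. The genotypes overlapped there, with a log2 fold change near 0 (-0.07, SE 0.224). The difference of the KO effect between the sets had an unadjusted p of 0.00265 by edgeR's interaction test and did not pass after adjustment. Midbrain and hindbrain factors had a median of 0.23 in Hox-high and -0.47 in Hox-low libraries. The former was -0.06 without KO male 2, when only the females bear on the genotype effect. Choroid plexus genes had 0.38 and -0.21. Oligodendrocyte genes had the same sign in both sets, at -0.48 and -0.10. Tested over all 12 libraries, the KO effect differed between the sets for 1 of 19767 genes (0.00506%), AK157302, and at an unadjusted p under 0.05 for 1.94%. No member of the gene lists was among the calls.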

How the data were processed

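RNA of embryonic brains at E15.5, from WT and Nsd2 KO mice, was sequenced after depletion of ribosomal RNA, with a stranded kit. The kit version and sequencer of each library are not given in the sources used here. The deposited values are counts per gene, without normalization. To make these counts the authors cut reads to a common length, removed adapters with cutadapt 2.6, aligned to GRCm38 (mm10) with HISAT2 2.1.0 and quantified Ensembl transcripts with StringTie 2.0.6, whose script derives whole counts from coverage. Reads of overlapping or near-identical genes can therefore be assigned to either, and no removal of PCR copies is stated for these libraries. No table column was left unused.

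The male and female tables were joined on the gene identifier and CPM computed with TMM (R 4.3.3, edgeR 4.0.16). Libraries with at least 1 CPM of Hoxa5 entered the fit with sex as a covariate. Genes were kept by filterByExpr (the equivalent of 10 counts in as many libraries as the smaller group, and 15 in all) and tested by edgeR's quasi-likelihood test with robust estimation, at a Benjamini-Hochberg adjusted p under 0.05. SE is the log2 fold change over the root of F. Alternatives were RLE scaling, DESeq2 1.42.0, other filters, the spread over 12 libraries, no sex covariate, the replicate block, the mean log2 CPM of Hox genes (prior count of 2) as a covariate, and each library left out. The spread over 12 libraries came from a fit of all 12, which also re-estimated the log2 fold changes. Steps were tested on simulated data. Positions come from GENCODE M 21 on GRCm38, and figures were drawn with matplotlib 3.10.9.

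The libraries and the 37 gene lists were chosen with earlier results of these data known. Lists are described by counts and medians and were not tested as lists. Genes were named by these rules: called genes with no overlap between KO and WT, the 4 leading called members of each list or, where none was called, its 2 most abundant, Whsc1, Hoxa5 and the 4 most abundant other Hox genes, the genes the study names for RNA, and genes of the interaction. Other genes were named after their values were seen. Lists described by counts alone, and the list of 5 sex genes, have no named members. Some genes that these rules pick are not reported here.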

Additional observations from a re-analysis of the deposited data

Results flagged for a closer look

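AK157302, a protein-coding model on chromosome 13 (21495223 to 21497146), was the gene whose KO effect differed between the Hox-high and Hox-low libraries by the interaction test, with a difference of -10.1 on the log2 scale (adjusted p = 0.044 by edgeR). AK157302 was at 7.76 and 7.59 CPM in the Hox-high WT male 2 and WT male 3, at 7.04, 6.97 and 6.27 CPM in the Hox-low WT male 1, KO male 1 and KO male 3, and at 0 in KO male 2 and in all 6 female libraries. The size of the difference depends on the count that the fit adds to libraries at 0 and is no bound. KO male 2 was the only male library at 0. AK157302 was no longer called when any male library was left out, with 0 genes called without WT male 2, WT male 3 or any KO male library and 2 other genes without WT male 1. It was called without each female library in turn, and also under RLE scaling and without the filter on low counts, but not by DESeq2, with the stricter filter or with the replicate block.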

How the results depend on the processing

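With 3 libraries of each genotype and 3 residual degrees of freedom, the counts of called genes moved with most settings. The Hox-high fits without WT female 3 or without KO male 2 rest, with sex as a covariate, on 1 library of a genotype. RLE scaling and a stricter filter (above 1 CPM in 3 or more libraries) left 1 lower and 8 higher genes in the Hox-high libraries. DESeq2 gave 144 and 49, the spread over all 12 libraries 61 and 17, and the fit without sex as a covariate 5 and 8. No filter gave 3 lower genes, the Hox level as a covariate 3 lower and 6 higher, sharing 1 gene with the 9, and both U3 records summed gave 0 lower. Without each library in turn, lower genes numbered 1 to 37, higher genes 1 to 9 and calls of the same sign in the Hox-low fit 0 to 40, against 6, and the log2 fold change of Whsc1 ranged from -8.64 to -7.38. The Hox-low calls were 189 and 45 by DESeq2 and ranged from 2 to 26 lower and 0 to 15 higher without each library. Genes whose KO effect differed between the sets numbered 3 by DESeq2, 0 with the stricter filter, and 0 to 2 without each library.

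The replicate number as a block gave 252 lower and 32 higher genes in the Hox-high libraries and 0 genes for the difference between the sets. The number pairs only WT female 3 with KO female 3 and WT male 2 with KO male 2 within the Hox-high set, whose residuals correlated at -0.205 and -0.317. Over the 12 libraries the 6 same-numbered pairs correlated at -0.0928 to 0.218, so the number was not taken as a pairing.

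Signs turned for uncalled genes with log2 fold changes mostly near 0. With the Hox level as a covariate Cacnb3 was at -0.00319, Prkar1a at -0.0333, Grin2b at 0.0221 and Gria2 at 0.0942. Without sex as a covariate Prkar1a was at -0.0125, Gria2 at 0.19 and Htr2c at -0.147. With the spread over 12 libraries Htr2c was at -0.0198 and Hoxb3 at 0.0844, without the filter Prkar1a at -0.00542 and Htr2c at -0.00423, and with the block Rab3c at -0.00983, Htr2c at -0.445 and Ttr at -0.188. Without each library in turn the range was -0.0616 to 0.153 for Cacnb3, -0.727 to 0.134 for Col3a1, -0.252 to 0.231 for Gria2, -0.2 to 0.0984 for Grin2b, -0.202 to 0.299 for Htr2c, -0.0865 to 0.0883 for Prkar1a and -0.0099 to 0.172 for Ptprs. It was -1.29 to 0.0684 for Hoxb3, -3.85 to 0.588 for Hoxb8, -1.75 to 0.102 for Hoxc4, -0.00971 to 0.497 for Pcdha2 and -0.0787 to 0.698 for Pcdhb8. The causes were not tested.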
